A study of Homo sapiens with 45 samples.

Results

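Day 13 was compared with day 11 in human cells on their way to spinal motor neurons, across all genes. The comparison takes the 3 libraries labelled day 11 and the 3 labelled day 13, which are 6 of the 45 human libraries, and 19436 genes passed the filter on low counts. The cells derive from H9, a long-established line of human embryonic stem cells. They were first grown as neuromesodermal progenitors, the embryonic precursors of spinal cord and paraxial mesoderm, in CHIR99021, bFGF, SB431542 and DMH1, and on day 0 they were replated in RA (retinoic acid, 100 nM) and SAG (500 nM), which activates Smoothened and so switches on Hedgehog signalling. Both days therefore share the line, the starting cells and both agents, and by the labels they differ only in the time spent in culture. The labels call the cells of both days neural progenitors, say that medium was replaced every other day without giving the days, and number 3 biological replicates a day. Nothing in the labels says whether the replicates came from separate differentiations, so p-values measure the spread between libraries of a day. That spread was estimated in a fit of all 45 libraries, not from the 6 compared here alone.

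In the developing spinal cord, Sonic hedgehog from the floor plate divides the ventral neural tube into progenitor domains, and the motor neuron domain makes neurons first and glia later. The late phase is marked by nuclear factor I proteins and by radial glial genes, and by the loss of LIN28 proteins, RNA-binding proteins of early, fast-growing progenitors. The floor plate itself is a strip of epithelial glia whose cells carry cilia. Retinoic acid is broken down by CYP26 enzymes, whose genes are themselves induced by it, and it patterns the cord along its length through HOX genes.

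The day 11 libraries held 29457462 to 32300679 counts and the day 13 libraries 37420764 to 39021139, so day 13 was sequenced more deeply. The mitochondrial share of the reads was 2.11% to 2.64% in the earlier libraries and 2.45% to 3.04% in the later ones. Neural markers matched the labels on both days: 6 progenitor markers summed to 3350 to 4060 TPM (transcripts scaled by gene length and library total) on day 11 and 3590 to 3960 on day 13. The 7 neuron markers summed to 2550, 2860 and 3830 TPM in the day 11 libraries and to 3260, 2480 and 3160 on day 13, so day 11 replicate 3 was the highest in neuronal RNA. Its progenitor sum, 3350 TPM, was the lowest of the 6 libraries. By the means of both days, most of the progenitor sum was VIM. The other progenitor markers were split in day 11 replicate 3, in counts scaled to library size. SOX1, NES and HES5 were at their highest of the 6 libraries there, SOX2 was at its lowest and PAX6 was at neither. In bulk RNA, fewer cells of a type and less RNA per cell cannot be told apart. Markers of other tissues were low: SOX10 of the neural crest and oligodendrocyte lineage, MYOD1 of muscle and GATA4 of endoderm were at 0 TPM on both days. The 4 neural crest markers summed to 0.19 to 0.73 TPM on day 11 and 0.26 to 0.41 on day 13. The 6 endoderm and epithelium markers summed to 2.66 to 4.05 TPM and 3.07 to 4.78, most of it EPCAM, at means of 1.89 and 2.44. The 5 endothelium and blood markers summed to 2.85 to 3.67 TPM on day 11 and 4.05 to 5.11 on day 13, without overlap. Most of that sum was KDR, at means of 2.84 and 3.96, while PECAM1 was under 0.1 TPM on both days and none of the 5 was called. The part of these markers in the results was not tested. Levels below are CPM (counts scaled to library size with TMM factors), to be read within a gene only, and every change is a log2 difference, day 13 minus day 11, with its standard error (SE).

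Over the interval, 1735 genes changed (8.93% of those tested): 1090 rose (5.61%) and 645 fell (3.32%), by edgeR's quasi-likelihood test at an adjusted p under 0.05. Counts of called list members below are to be read against these shares. Most of the changes were modest. Of the genes that rose, 215 rose at least 2-fold and the median rise was 1.37-fold, and of those that fell, 45 fell at least 2-fold, with a median ratio of 0.812. The change of all genes together had a median of -0.002 on the log2 scale. Protein-coding genes made up 96.1% of the rises and 78.6% of all genes tested. The libraries of the 2 days did not overlap in 1023 of the genes that rose and in 599 of those that fell. Over all genes the same separation held for 24.2%, of which 12.6% of genes lay higher on day 13 and 11.5% lower. The number of rises depended on single libraries: without day 13 replicate 1 it was 673, without day 11 replicate 3 it was 692, and without day 13 replicate 2 it was 710. The falls came to 314 without day 13 replicate 1. A fit of the days compared alone gave 404 rises and 159 falls.

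**Figure D1:**
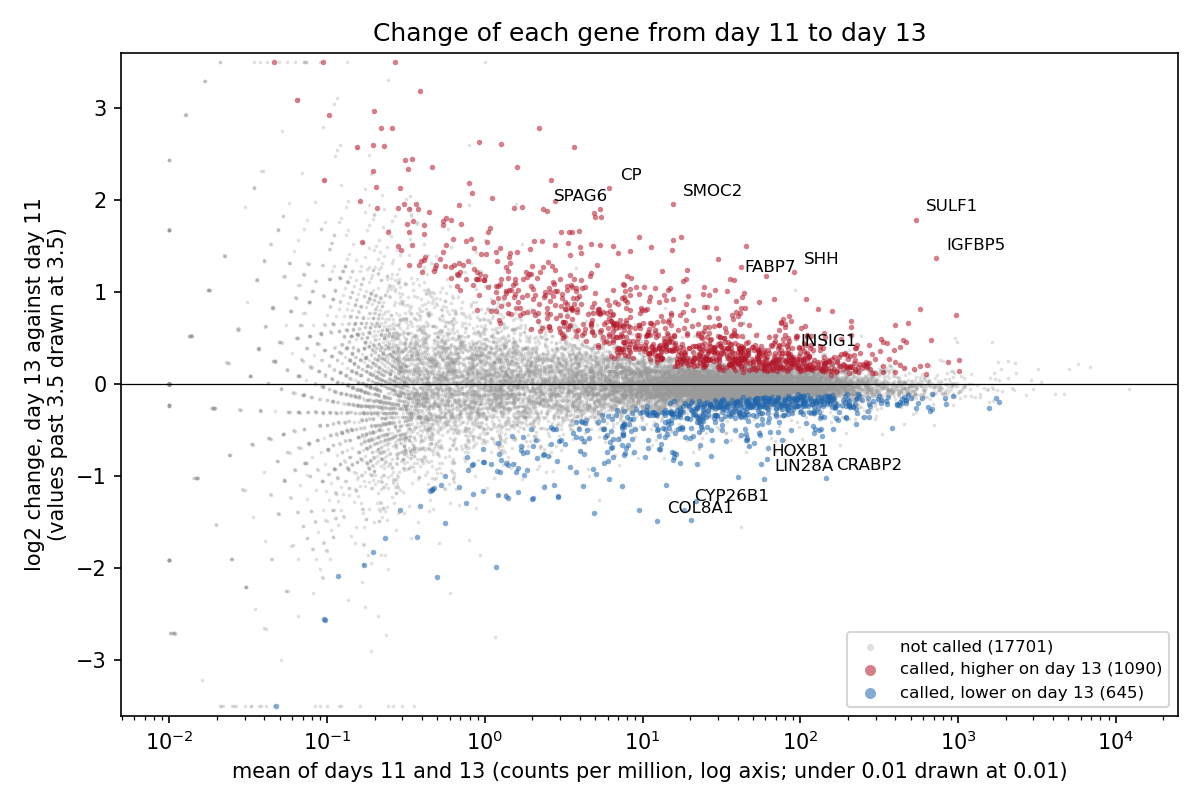
Log2 change of each of the 19436 genes from day 11 to day 13 (vertical axis) against its mean level (CPM, log axis). Red points are the 1090 genes called higher on day 13, blue points the 645 called lower, and grey points the rest; the rises reach further from 0 than the falls.

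Among expressed coding genes, the 12 largest rises ran from 1.37 to 2.13 on the log2 scale. These 12, and the 12 largest falls, were taken from called genes with a mean of at least 10 CPM and no overlap of libraries. That the days lie apart in them is therefore set by the choice. CP, with the largest, encodes ceruloplasmin, a copper-carrying ferroxidase, and measured 2.69, 2.68 and 1.47 CPM on day 11 and 8.58, 10.6 and 10.9 on day 13. Its lowest day 13 library lay above its highest day 11 library, and the log2 change was 2.13 ± 0.3 (adjusted p = 6.8e-06). SMOC2, a secreted calcium-binding matrix protein, went from 7.55, 7.58 and 3.89 CPM to 24.3, 27.4 and 22.4. Day 11 replicate 3 was the low library there, and the change was 1.96 ± 0.2 (adjusted p = 1.4e-08). SULF1, a sulfatase that trims heparan sulfate outside the cell, went from 231, 303 and 190 CPM to 939, 910 and 659. Replicate 3 was the lowest library on both days, the days did not overlap, and the rise was 3.47-fold (log2 1.79 ± 0.17, adjusted p = 1e-08). IGFBP5, which binds insulin-like growth factors, went from 410, 501 and 299 CPM to 1130, 1200 and 800, again with replicate 3 lowest on both days (1.37 ± 0.16, adjusted p = 4.4e-07).

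The other 8 rose by 1.43 to 1.6 on the log2 scale. They include EGLN3, an oxygen-sensing prolyl hydroxylase, and DDC, the decarboxylase of dopamine and serotonin synthesis. DDC measured 7.55, 10.2 and 5.94 CPM on day 11 and 28.8, 27.9 and 13.9 on day 13, a change of 1.57 ± 0.25 with no overlap and replicate 3 lowest on both days. CFC1, a co-receptor of Nodal, rose by 1.5 ± 0.22, and SLCO2A1, a prostaglandin transporter, by 1.45 ± 0.29. MLC1, a membrane protein of astrocytes, went from 7.59, 9.83 and 7.22 CPM to 25.6, 23.3 and 19.0 (1.46 ± 0.17). PCP4, a small regulator of calmodulin, measured 3.35, 4.6 and 6.24 CPM on day 11 and 18.2, 10.6 and 14.1 on day 13. Replicate 3 was the lowest library of neither day, and the change was 1.6 ± 0.2 without overlap. The remaining pair were CNTN3, a contactin of the neuronal surface, at 1.49 ± 0.21, and EFCC1 at 1.43 ± 0.25. All 12 calls held in each of the 12 alternatives that keep the same threshold. CP, DDC, EFCC1 and EGLN3 overlap other coding genes, and strand use in the counting is not given in the sources used here.

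**Figure D2:**
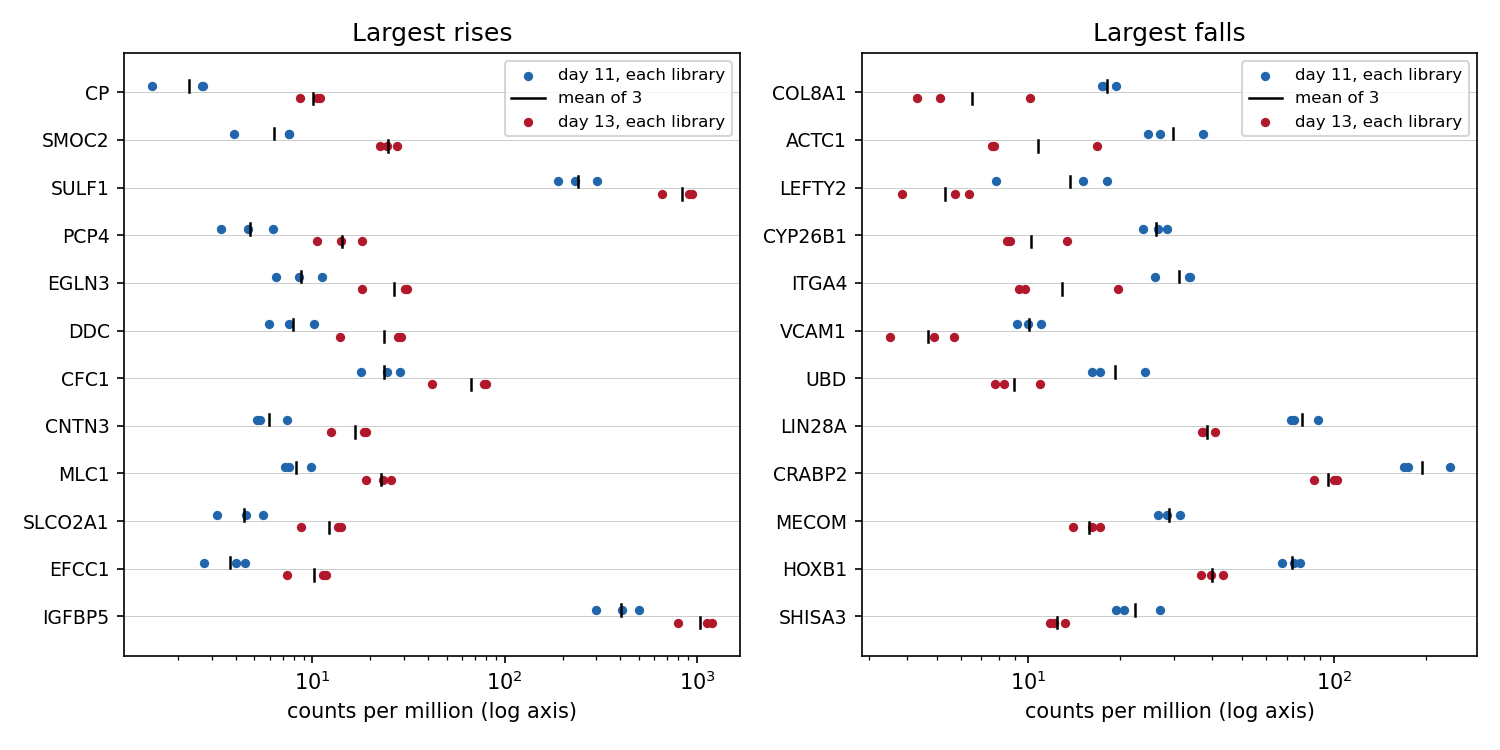
Level of the 12 coding genes with the largest rise (left) and the 12 with the largest fall (right) in each library (CPM, log axis); blue points are day 11, red points day 13 and black bars the mean of 3. The days are separate for each gene because only genes without overlap were chosen.

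Genes of the floor plate rose together. Of 12 tested genes of a floor plate and p3 domain list, 9 rose and 0 fell, with a median change of 1.04 against -0.002 over all genes. SHH, the Hedgehog ligand that the floor plate secretes, measured 52.7, 68.5 and 42.3 CPM on day 11 and 138, 153 and 89.9 on day 13. Every day 13 library lay above every day 11 library, and replicate 3 was the lowest of both days. The change was 1.22 ± 0.22 (adjusted p = 0.0004), or 2.32-fold. FOXA2, the transcription factor that specifies floor plate, went from 12.3, 14.6 and 7.18 CPM to 27.7, 28.7 and 17.9, with the days apart (1.12 ± 0.22, adjusted p = 0.00061). The secreted guidance proteins of the floor plate moved with them. NTN1, netrin-1, went from 433, 464 and 351 CPM to 782, 818 and 597 (0.82 ± 0.13), and SPON1, F-spondin, from 707, 849 and 624 to 1390, 1310 and 958 (0.75 ± 0.15). Both were without overlap and lowest in replicate 3.

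The other called members included transcription factors and a protease. NKX2-8, a homeodomain factor, rose by 0.87 ± 0.21. NKX2-2, the factor of the p3 domain next to the floor plate, went from 2.15, 1.98 and 2.51 CPM to 3.84, 4.22 and 3.13. The days did not overlap, and the change was 0.75 ± 0.22 (adjusted p = 0.025). CORIN, a membrane protease, rose from under 1 CPM in each day 11 library to 1.93, 1.96 and 1.03 (1.7 ± 0.42), and LMX1B from 0.158, 0.541 and 0.261 CPM to 1.43, 1.27 and 0.569 (1.74 ± 0.53). FOXA1 at 0.33 ± 0.14 (adjusted p = 0.14) and the rarely counted FERD3L did not pass. LMX1A was at 0 in the 3 day 11 libraries and at a mean of 0.0334 CPM on day 13. In a fit of the days compared alone, 4 members were called, and with 1 library left out 6 to 9. Those lost in the fit of the days alone include SPON1 (adjusted p = 0.054) and FOXA2 (adjusted p = 0.078). The calls of NKX2-2 and LMX1B ended in 5 and 6 alternatives, with adjusted p up to 0.11 and 0.15.

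The Hedgehog target list gave a mixed picture around this. Of 9 tested, 3 rose and 1 fell. The rises were PTCH1 and the genes FOXA2 and NKX2-2, which were already counted in the floor plate and p3 list. PTCH1, the Hedgehog receptor and a direct target, measured 257, 301 and 254 CPM on day 11 and 336, 356 and 287 on day 13, a change of 0.27 ± 0.086 (adjusted p = 0.045) with overlapping libraries. That call ended in 8 alternatives, with adjusted p up to 0.41. GAS1, a Hedgehog co-receptor that is turned down where the signal is strong, fell from 8.88, 8.63 and 11.1 CPM to 5.39, 5.14 and 6.25, with the days apart (-0.77 ± 0.084, adjusted p = 3.9e-08). GLI1, the transcriptional readout, was at 0.04 ± 0.11 (adjusted p = 0.88), and HHIP at 0.05 ± 0.11 (adjusted p = 0.83).

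LINC00261 is a noncoding gene beside FOXA2. Its rise was the largest among called genes not annotated as coding that reached a mean of 10 CPM and did not overlap between days. It measured 18.8, 18.3 and 13.1 CPM on day 11 and 57.7, 50.7 and 20.9 on day 13. Day 13 replicate 3 lay close to day 11, and the change was 1.36 ± 0.4 (adjusted p = 0.026). The call ended in 7 of 12 alternatives, including DESeq2 (adjusted p = 0.56).

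Motile cilium genes rose as a group. Of 16 tested, 14 rose and 0 fell, with a median change of 0.96. These genes build and power beating cilia. FOXJ1, the transcription factor that turns on the motile program, measured 56.2, 53.1 and 31 CPM on day 11 and 90.4, 108 and 69.1 on day 13. The days did not overlap and replicate 3 was lowest on both (0.93 ± 0.18, adjusted p = 0.00076). RFX2 and RFX3, partner factors that bind the X-box of ciliary promoters, rose less, by 0.42 and 0.26, and the RFX3 libraries overlapped. Among the structural genes, SPAG6 of the central pair went from 0.948, 1.14 and 0.882 CPM to 3.74, 4.77 and 2.61, with the days well apart (1.9 ± 0.29, adjusted p = 1.9e-05). RSPH1 and RSPH4A encode proteins of the radial spokes. RSPH1 rose from 1.86, 2.47 and 2.32 CPM to 6.92, 6.65 and 4.34 (1.43 ± 0.2), and RSPH4A from 7.9, 8.66 and 6.79 to 17.8, 19 and 11.7 (1.05 ± 0.13). Neither overlapped between days. DNAH9, a dynein heavy chain of the outer arm, rose from 6.29, 6.74 and 6.14 CPM to 14.1, 14.4 and 9.41 (0.98 ± 0.13). The rises covered the regulators, radial spokes, central pair and dynein arms. PIFO, a protein of the ciliary base, rose by 1.02 ± 0.14, and HYDIN, of the central pair, by 0.63 ± 0.12. CCDC39, a molecular ruler of the axoneme, rose by 1.56 ± 0.36, and its annotation overlaps other genes.

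Both genes of the list that did not pass had negative changes. DNAH5, another outer arm heavy chain, was at -0.43 ± 0.21 (adjusted p = 0.22), and ARMC4 at -0.33 ± 0.13 (adjusted p = 0.099). DNAI2 fell below the filter. TEKT1, a tektin of the axoneme, measured 0.221, 0.481 and 0.229 CPM on day 11 and 1.08, 1.07 and 0.672 on day 13 (1.58 ± 0.51, adjusted p = 0.045). That call ended in 8 alternatives, with adjusted p up to 0.16. With 1 library left out, 8 to 14 members were called, and 7 in the fit of the days alone.

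Because RFX factors are named by the list, the promoters of the motile cilium list were searched for their half-site, a choice made after the values were seen. The motif GTTGCC, on either strand, occurred in the 300 bases around the start (250 before to 50 after, RefSeq on GRCh38.p14) of 5 of the 10 tested list genes with a promoter in the table. All 5 are among the 9 of these that rose. Over all genes tested the share was 16.9% of 12450. Among the genes that rose it was 24.0% of 792, and among those that fell 13.4% of 484. These are matches of letters, with no test of binding. The 3 stretches below show the 120 bases before the start for the list genes whose half-site begins in the 50 bases before it, with the half-site in capitals (GGCAAC is GTTGCC on the other strand). They lie at chr6:116616359-116616478 (plus strand), chr17:6831730-6831849 (minus) and chr10:22345376-22345495 (plus).
RSPH4A: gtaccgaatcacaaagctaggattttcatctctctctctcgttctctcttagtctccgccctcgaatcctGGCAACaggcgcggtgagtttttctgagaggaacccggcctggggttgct
TEKT1: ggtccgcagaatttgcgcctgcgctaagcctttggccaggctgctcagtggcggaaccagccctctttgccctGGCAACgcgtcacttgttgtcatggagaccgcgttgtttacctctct
SPAG6: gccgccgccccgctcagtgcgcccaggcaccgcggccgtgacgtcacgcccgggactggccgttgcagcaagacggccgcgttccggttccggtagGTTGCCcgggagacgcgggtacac

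Of 12 tested factors of the switch to gliogenesis, 6 rose, 0 fell and 6 did not pass (median 0.23, lowest -0.45), while defining genes of mature astrocytes stayed low. NFIA, a nuclear factor I protein that starts gliogenesis in the spinal cord, measured 19.3, 17.8 and 11.2 CPM on day 11 and 32.3, 34 and 29.3 on day 13. The days were apart, with day 11 replicate 3 lowest (0.98 ± 0.17, adjusted p = 0.00011). Its paralogs NFIB and NFIX rose by 0.79 ± 0.15 and 0.87 ± 0.23, and NFIC by 0.39 ± 0.084. The NFIX call ended without day 11 replicate 3 (adjusted p = 0.13). LIFR and STAT3, a receptor and a transcription factor of the cytokine signal that drives astrocyte genes, rose by 0.52 ± 0.1 and 0.31 ± 0.068. SOX9, a factor needed for gliogenesis, was at 0.15 ± 0.081 (adjusted p = 0.27).

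Of 18 tested radial glia and astrocyte genes, 3 rose and 0 fell, a share of the list above the 5.61% of all genes but with a median change of only 0.15. SLC1A3, the glutamate transporter of radial glia, went from 75.6, 85.6 and 62.4 CPM to 156, 163 and 109, without overlap (0.93 ± 0.14, adjusted p = 1.5e-05). CD44, a hyaluronan receptor, went from 11.3, 9.38 and 7.02 CPM to 16.7, 20.5 and 17 (0.97 ± 0.22). S100B rose from 0.601, 0.692 and 0.686 CPM to 1.91, 2.11 and 1.52 (1.48 ± 0.33). FABP7, a fatty acid binding protein of radial glia that sits in the progenitor list, went from 24.7, 23.8 and 23.3 CPM to 54.2, 57.2 and 45.8. Its day 11 libraries were the tightest of these genes and lay far below day 13 (1.13 ± 0.1, adjusted p = 6.1e-10). GFAP, the filament of mature astrocytes, was at 0.158, 0.12 and 0 CPM on day 11 and 0.0502, 0.124 and 0.0517 on day 13, and AQP4 stayed under 0.5 CPM in every library. The 6 astrocyte and radial glia markers together summed to 167 to 196 TPM on day 11 and 272 to 342 on day 13.

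**Figure D3:**
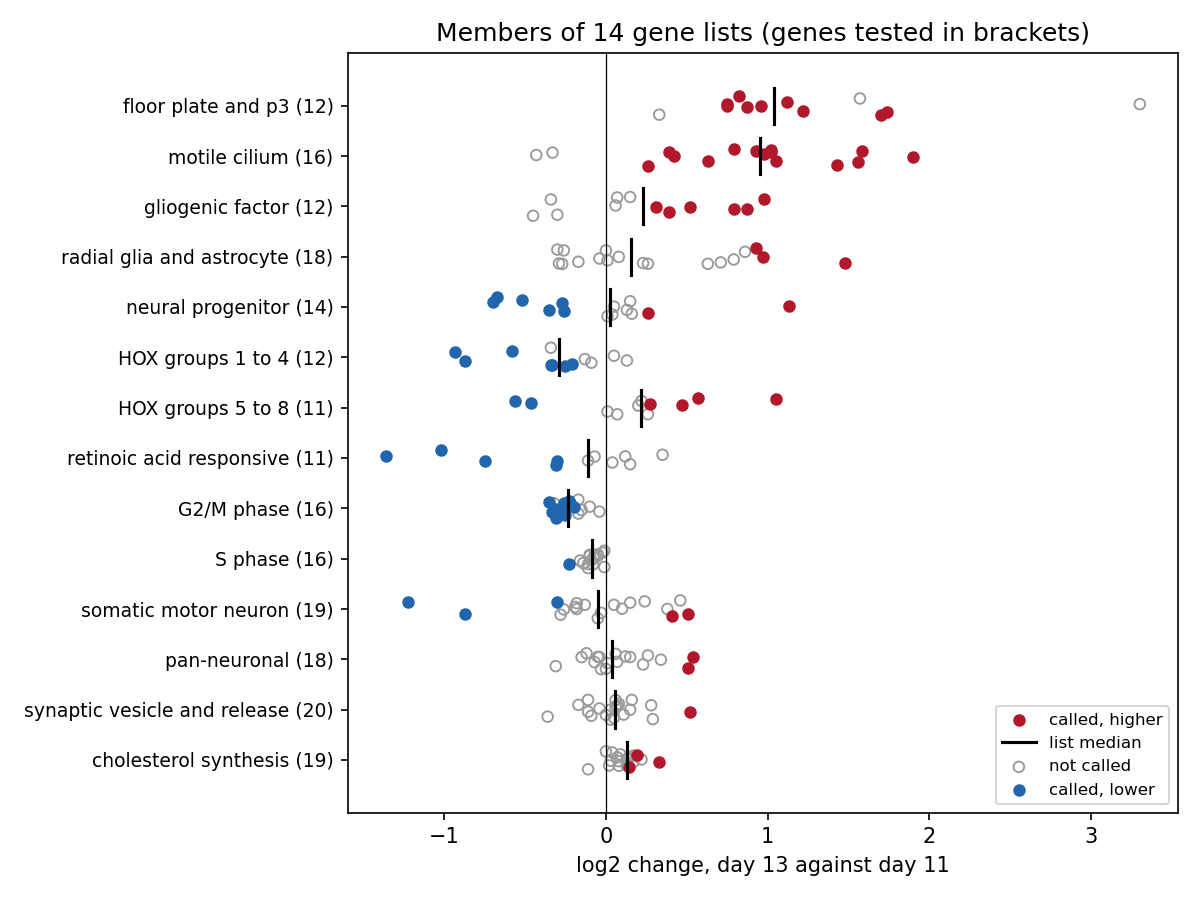
Log2 change from day 11 to day 13 of each tested member of 14 gene lists (horizontal axis), one point a gene; filled red points were called higher, filled blue points called lower, open points not called, and black bars are list medians. Floor plate and motile cilium genes lie to the right, HOX groups 1 to 4 and G2/M genes to the left; the open point at 3.3 is LMX1A, which had no counts on day 11, so its fitted value is no measure of size.

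General neural progenitor genes moved both ways. Of 14 tested, 2 rose and 6 fell. PAX6, a factor of the intermediate and ventral progenitor domains, went from 92.4, 94.8 and 84.6 CPM to 72.7, 81.2 and 71.3, with the days apart (-0.27 ± 0.058, adjusted p = 0.0016). SOX1 fell by 0.35 on the log2 scale and NES, the intermediate filament nestin, by 0.26. SOX2, which maintains neural progenitors, was higher on day 13, at 209, 213 and 182 CPM on day 11 and 256, 257 and 213 on day 13. Its libraries just touched, the change was 0.26 ± 0.071 (adjusted p = 0.013), and the call ended without day 11 replicate 3 (adjusted p = 0.13). OLIG2, the factor of the motor neuron progenitor domain, measured 35.7, 43.3 and 46.8 CPM on day 11 and 35.9, 35.1 and 30.7 on day 13. It did not pass (-0.31 ± 0.12, adjusted p = 0.1), nor did NKX6-1 (0.28 ± 0.12, adjusted p = 0.18). In the fit of the days alone, 1 progenitor gene was called lower, LIN28B, whose values are given below. The calls of PAX6, SOX1 and NES ended in that fit (adjusted p = 0.065, 0.082 and 0.052).

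Called genes of Notch signalling and neurogenesis also went both ways. Among 8 Notch targets, HES1 rose and HES5, HEYL and NRARP fell. HES1 measured 62.6, 65.1 and 42.2 CPM on day 11 and 86.9, 93.8 and 64.7 on day 13 (0.53 ± 0.13, adjusted p = 0.0067). Day 13 replicate 3 lay below day 11 replicate 2, so the days overlapped. HES5 measured 12.5, 14.6 and 19.8 CPM on day 11 and 10.1, 9.68 and 9.07 on day 13 (-0.7 ± 0.16, adjusted p = 0.0034). Its highest value was in day 11 replicate 3, the library with the highest sum of neuron markers. Both of these calls ended without that library, with adjusted p of 0.086 for HES1 and 0.07 for HES5. NEUROG2, the proneural factor of motor neuron progenitors, fell from 52, 61.6 and 72.6 CPM to 43.6, 39.5 and 36.6, without overlap (-0.64 ± 0.11, adjusted p = 0.00018), and this call held in each of the 12 alternatives. It was the 1 gene that fell of 16 neurogenic factors and Notch ligands tested. The 1 that rose was NEUROG3, a related factor, from 0.759, 0.631 and 0.327 CPM to 1.18, 1.61 and 1.01 (1.14 ± 0.32, adjusted p = 0.017), and its call ended in 3 alternatives, with adjusted p up to 0.14. With 1 library left out, 1 to 5 members fell and 0 to 1 rose. DLL1, a Notch ligand, did not pass, at -0.06 ± 0.17.

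The LIN28 genes fell, and LIN28A had the smallest adjusted p of the genes named by the rule. LIN28A, which blocks maturation of the let-7 microRNAs, measured 72.5, 74.2 and 88.8 CPM on day 11 and 36.9, 37.4 and 40.9 on day 13. The days were far apart in each library, and the level fell by 1.03 on the log2 scale (SE 0.069, adjusted p = 3e-13). Its paralog LIN28B went from 52.2, 55.7 and 65.9 CPM to 38, 35.2 and 36.3 (-0.67 ± 0.074, adjusted p = 5.8e-08). Other genes known as let-7 targets are given because they fell, so their shared direction is set by that choice. TRIM71, a ubiquitin ligase of early embryonic cells, went from 68.4, 75.8 and 86.3 CPM to 47.2, 48.1 and 47.3 (-0.69 ± 0.079). NR6A1, an orphan nuclear receptor of the trunk, went from 63.9, 73.7 and 96.1 CPM to 45.5, 42.6 and 45 (-0.81 ± 0.098). IGF2BP1, an RNA-binding protein, fell by 0.29 (SE 0.039), and the surface proteins PRTG and IGDCC3 by 0.5 and 0.47. For TRIM71, NR6A1 and IGF2BP1 the highest day 13 library lay below the lowest day 11 library.

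The let-7 microRNAs themselves lack poly(A) tails and were not measured here. Their mature forms, let-7a to let-7i and miR-98, 9 sequences in the RefSeq table (GRCh38.p14), share bases 2 to 8, the seed, shown in capitals for 3 of them because its complement is the motif searched for next.
hsa-let-7a-5p: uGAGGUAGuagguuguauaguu
hsa-let-7i-5p: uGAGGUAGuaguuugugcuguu
hsa-miR-98-5p: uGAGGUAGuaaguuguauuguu

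The complement of the seed, CTACCTC, was counted on the transcript strand of 3′ UTRs (GENCODE 29, GRCh38, the longest of each gene), again a search chosen with the values known. It occurred in 10.8% of the 3′ UTRs of 14993 coding genes tested, in 14.7% of 612 genes that fell and in 11.5% of 1046 that rose. At least 2 copies were found in 1.31% of all, in 3.43% of the genes that fell and in 0.86% of those that rose. The median 3′ UTR was 1334 bases over all genes, 1403 for the genes that fell and 1525 for those that rose. LIN28A has 1 copy, LIN28B 4, TRIM71 6 and NR6A1 5. The first copy of each is shown with its flanks, the motif in capitals, at chr1:26427348-26427370, chr6:105078812-105078834, chr3:32891968-32891990 (all plus strand) and chr9:124522310-124522332 (minus). The base after the motif is the same in these 4 first copies, but some later copies in LIN28B, TRIM71 and NR6A1 are followed by another base. The match says nothing of whether a site is used.
LIN28A: gcacagcctattgaaCTACCTCa
LIN28B: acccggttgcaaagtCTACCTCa
TRIM71: aacattgcttaagtcCTACCTCa
NR6A1: tgttgacaaagatgaCTACCTCa

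The 12 largest falls among expressed coding genes, chosen without overlap by the same rule, were led by COL8A1. This short-chain collagen measured 19.4, 17.4 and 17.6 CPM on day 11 and 5.12, 4.32 and 10.1 on day 13. Day 13 replicate 3 was the highest of its day but stayed under day 11 (-1.49 ± 0.37, adjusted p = 0.0079). ACTC1, cardiac alpha actin, went from 37.4, 27 and 24.6 CPM to 7.62, 7.7 and 16.8 (-1.47 ± 0.42, adjusted p = 0.023). ITGA4, an integrin subunit, went from 33.8, 25.9 and 33.5 CPM to 9.33, 9.73 and 19.6 (-1.27 ± 0.33), and its ligand VCAM1 from 9.99, 9.14 and 11 to 3.51, 4.89 and 5.69 (-1.1 ± 0.24). In ACTC1 and ITGA4 too, day 13 replicate 3 kept the most RNA. LEFTY2, a secreted inhibitor of Nodal, went from 18.1, 15.1 and 7.84 CPM to 3.84, 6.41 and 5.76 (-1.36 ± 0.35). MECOM, a zinc finger transcription factor, fell from 31.4, 28.4 and 26.6 CPM to 14, 16.1 and 17.1 without overlap (-0.87 ± 0.11, adjusted p = 3.7e-07). UBD, a ubiquitin-like modifier, fell by 1.09 and SHISA3 by 0.85. The calls of COL8A1, ACTC1, ITGA4 and LEFTY2 ended without day 13 replicate 1, with adjusted p of 0.06, 0.13, 0.096 and 0.08, and that of UBD without day 11 replicate 3 (adjusted p = 0.06). ACTC1 was also lost without day 11 replicate 1 (adjusted p = 0.094). Without day 13 replicate 2, ACTC1, COL8A1 and ITGA4 were lost as well (adjusted p = 0.12, 0.065 and 0.083).

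HOX genes of the anterior groups fell and several of the middle groups rose. Of 12 tested genes of groups 1 to 4, 7 fell and 0 rose (median -0.29), and the count was 7 with any 1 library left out. HOXB1 measured 77.7, 73.9 and 67.5 CPM on day 11 and 36.6, 43.4 and 39.7 on day 13, with the days far apart (-0.87 ± 0.076, adjusted p = 2.9e-10). HOXD4 went from 54.6, 53.5 and 56.1 CPM to 34.2, 36.5 and 39.2 (-0.58 ± 0.084), and HOXD1 from 2.53, 2.41 and 2.38 to 1.1, 1.39 and 1.34 (-0.93 ± 0.15). Smaller falls with tight libraries included those of HOXB4 (-0.33 ± 0.053), HOXB2 (-0.25 ± 0.062) and HOXB3 (-0.21 ± 0.038). On even days 2 of the 12 fell, HOXB1 and HOXD1. HOXB4 was at -0.11 from day 12 to 14, HOXB2 at -0.19 and HOXB3 at 0.01, and the day 15 mean of HOXB3, 244 CPM, was near its day 11 mean of 240. HAGLR, a noncoding gene within the HOXD cluster, went from 10.9, 10.1 and 12.3 CPM to 6.39, 6.38 and 7.16 (-0.74 ± 0.12).

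Of 11 tested genes of groups 5 to 8, 4 rose and 2 fell (median 0.22). HOXB6 rose from 54.5, 58.8 and 60.6 CPM to 83.6, 77.4 and 79.1, without overlap (0.47 ± 0.078, adjusted p = 8.2e-05). HOXA6 rose from 3.07, 2.38 and 1.89 CPM to 5.97, 4.67 and 4.63 (1.05 ± 0.2). HOXC8 rose by 0.57 ± 0.15 and HOXB7 by 0.27, while HOXC5 fell by 0.56 (SE 0.17) and HOXD8 by 0.46 (SE 0.077). HOXD8 measured 19.7, 19.5 and 22.9 CPM on day 11 and 16.3, 14.2 and 14.6 on day 13, with the days apart. None of the 4 tested genes of groups 9 to 13 passed in edgeR's test, 1 had an unadjusted p under 0.05 and DESeq2 called 0. The calls of HOXC8 and HOXC5 ended without day 11 replicate 3 (adjusted p = 0.12 and 0.1), and that of HOXB7 ended in 9 alternatives. HOX transcripts overlap each other, and 2 members of groups 5 to 8 were called higher in the fit of the days alone.

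Of 11 tested genes that respond to retinoic acid, 5 fell, 0 rose and 6 did not pass (median -0.11). CYP26B1, an enzyme that clears retinoic acid, measured 28.4, 23.7 and 26.5 CPM on day 11 and 8.7, 8.52 and 13.4 on day 13. The days were far apart, and the level fell by 1.36 on the log2 scale (SE 0.33, adjusted p = 0.0069). CYP26A1, a second such enzyme, went from 17, 18.1 and 24.3 CPM to 13.9, 9.63 and 11.8 (-0.75 ± 0.22, adjusted p = 0.027). CRABP2, which carries retinoic acid to its nuclear receptors, went from 170, 175 and 239 CPM to 102, 85.9 and 99.9 without overlap (-1.02 ± 0.1, adjusted p = 2.2e-08). RARB, a retinoic acid receptor induced by its ligand, fell by 0.31 (SE 0.086), and the coregulator NRIP1 by 0.3 (SE 0.075). CRABP1 and DHRS3, a retinal reductase, did not pass, at 0.12 ± 0.12 and 0.04 ± 0.14. The call of CYP26A1 ended in 5 alternatives, among them without day 11 replicate 3 (adjusted p = 0.17), and that of RARB ended without the same library (adjusted p = 0.27). The call of CYP26B1 ended without day 13 replicate 1 (adjusted p = 0.05). With 1 library left out, 2 to 5 members were called.

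The day between changes how these 2 enzymes read. The mean level of CYP26B1 was 4.89 CPM on day 10, 26.2 on day 11, 6.05 on day 12, 10.2 on day 13, 4.47 on day 14 and 17.8 on day 15. CYP26A1 followed at 6.16, 19.8, 5.55, 11.8, 4.02 and 15.9 CPM over the same days. Both were therefore higher on each odd day than on the even days beside it, and the fall from day 11 to day 13 was between peaks. Against the midpoint of days 11 and 13, a contrast added after the data were seen, day 12 was lower by 1.44 ± 0.32 in CYP26B1 (adjusted p = 0.014) and by 1.46 ± 0.22 in CYP26A1 (adjusted p = 0.00037). Over all genes, 212 were higher on day 12 than the midpoint (1.09%) and 139 lower (0.715%). The lower ones included DHRS3 and 6 of the 12 HOX genes of groups 1 to 4, among them HOXB3 at 240 CPM on day 11, 194 on day 12 and 207 on day 13 (means). HOXB3 averaged 174.5 CPM on day 10, 195.5 on day 14 and 243.5 on day 15. By their means from day 10 to day 15, HOXB3, HOXB4, RARB and DHRS3 also were higher on each odd day than on the even days beside it. The falls of HOXB3, HOXB4 and RARB from day 11 to day 13 were thus between peaks as well.

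**Figure D4:**
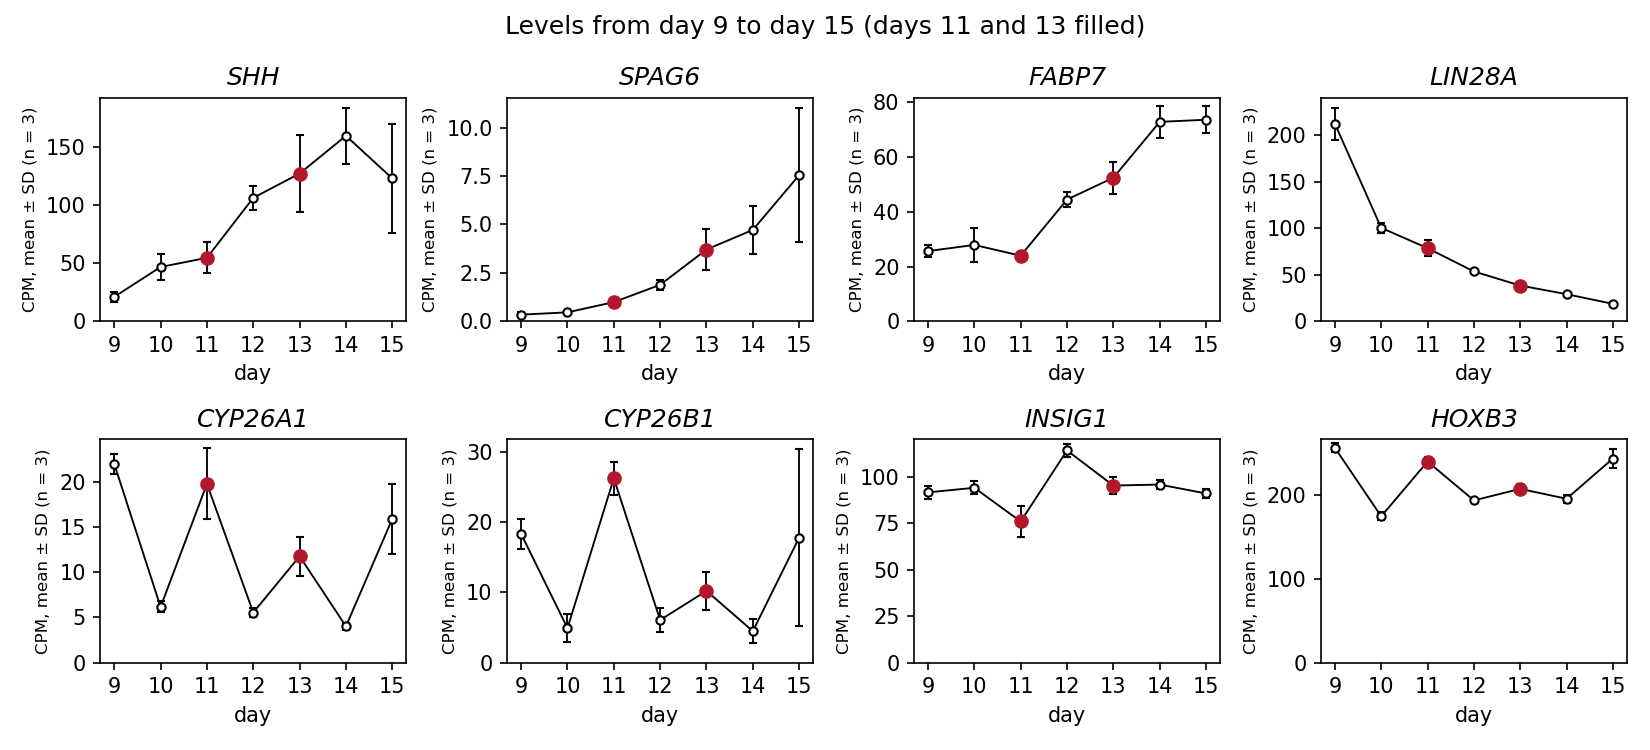
Mean level of 8 genes from day 9 to day 15 (CPM, axes from 0; bars are the SD of 3 libraries), with days 11 and 13 filled. SHH, SPAG6, FABP7 and LIN28A move through day 12 in 1 direction. CYP26A1, CYP26B1 and HOXB3 alternate between odd and even days, and INSIG1 peaks on day 12.

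Genes of mitosis were slightly lower on day 13. Of 16 tested G2/M genes, 10 fell and 0 rose, and all 16 had a negative change (median -0.23). AURKB, a mitotic kinase, measured 55, 49.9 and 44.3 CPM on day 11 and 37.8, 42.3 and 37.3 on day 13, with the days apart by a small margin (-0.35 ± 0.067, adjusted p = 0.00047). BUB1, of the spindle checkpoint, went from 102, 102 and 90.8 CPM to 76.1, 83.1 and 78.8 (-0.31 ± 0.059), and HMMR, a spindle protein, from 32.9, 33.1 and 33.8 to 26.1, 28 and 25.1 (-0.33 ± 0.081). Cyclin B1, CCNB1, fell by 0.26 and TPX2, a spindle assembly factor, by 0.25. MKI67, the common proliferation marker, did not pass, at 390, 417 and 350 CPM on day 11 and 350, 385 and 344 on day 13 (-0.1 ± 0.066, adjusted p = 0.4). Of 16 S phase genes 1 fell, RRM2, a subunit of ribonucleotide reductase (-0.23 ± 0.06). All 16 S phase genes had a negative change too (median -0.09), and from day 12 to day 14, 3 fell (median -0.13). At a threshold of a 1.2-fold change no G2/M gene was called, in the fit of the days alone 6 were, and with 1 library left out 6 to 9. Day 12 was not midway: 5 of the 16 were called higher on day 12 than the midpoint, among them HMMR, with means of 33.3 CPM on day 11, 36.5 on day 12 and 26.4 on day 13. From day 12 to day 14, 3 of the 16 G2/M genes fell (median -0.1). The means of AURKB, BUB1, HMMR, CCNB1 and TPX2 were higher on day 14 than on day 13, though below day 11. HMMR averaged 30.0 CPM on day 14. By their means, HMMR and AURKB were higher on each even day from 10 to 14 than on the odd days beside it.

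Most genes of neurons and motor neurons did not pass. Of 18 pan-neuronal genes 2 rose and 0 fell, and of 20 synaptic genes 1 rose and 0 fell. Over all genes 5.61% rose and 3.32% fell, so the synaptic count is near that share. STMN2, a tubulin regulator of growing axons, measured 560, 651 and 1010 CPM on day 11 and 820, 535 and 818 on day 13. The spread within each day exceeded the change of -0.03 ± 0.17 (adjusted p = 0.95). TUBB3, the neuronal tubulin, was at -0.05 ± 0.092 (adjusted p = 0.83), and MAP2, a dendritic protein, at 0.01 ± 0.058 (adjusted p = 0.95). Among 19 somatic motor neuron genes 2 rose and 3 fell, a larger share than the 8.93% of all genes. With 1 library left out, 0 to 1 rose and 1 to 3 fell. ISL1, MNX1 and CHAT, which specify motor neurons or make their transmitter, did not pass, at -0.18 ± 0.21, -0.26 ± 0.24 and 0.38 ± 0.17. ISL2, a factor of newborn motor neurons, went from 2.47, 3.7 and 6.07 CPM to 1.83, 1.71 and 1.68 (-1.22 ± 0.33, adjusted p = 0.014), its highest value again in day 11 replicate 3, and without that library the call ended (adjusted p = 0.18). SLC5A7, the choline transporter, rose by 0.51 ± 0.15, a call that ended in 6 alternatives.

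In a pair of lists on neuronal maturation, the genes that passed rose. Of 20 ion channel genes 4 rose and 0 fell (median 0.17), and of 17 genes of myelin and late neuronal structure 5 rose and 0 fell (median 0.22). The shares over all genes were 5.61% and 3.32%. SCN9A, a voltage-gated sodium channel, went from 3.95, 4.27 and 4.15 CPM to 7.87, 6.38 and 7.16 (0.79 ± 0.16, adjusted p = 0.00094). CACNA1C, an L-type calcium channel, went from 8.25, 8.39 and 10.5 CPM to 15.2, 12.8 and 14.7 (0.65 ± 0.12), and neither gene's libraries overlapped. CAMK2A, the calcium-dependent kinase of synapses, rose from 8.79, 8.24 and 6.01 CPM to 12.9, 15.3 and 12.6 (0.82 ± 0.14, adjusted p = 6.4e-05). SCN1A and SCN2A, also sodium channels, rose by 1.3 ± 0.42 and 0.62 ± 0.15, and their calls ended in 8 and 4 alternatives, with adjusted p up to 0.16 and 0.15. With 1 library left out, 2 to 5 channel genes rose, in the fit of the days alone 2, and on TPM values with limma 0. NRXN3, a presynaptic adhesion protein, rose by 0.56 ± 0.13, SHANK1, a postsynaptic scaffold, by 0.53 ± 0.11 and the ankyrin ANK2 by 0.3 ± 0.063. With limma the calls of SCN9A, CACNA1C and SHANK1 ended (adjusted p = 0.085, 0.15 and 0.57).

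The same interval on the even days, day 14 against day 12, shares no library with this one and moved the same way. On even days 639 genes rose (3.29%) and 346 fell (1.78%). Of the 1090 genes that rose from day 11 to day 13, 1071 (98.3%) also had a positive change from day 12 to day 14, against 51.3% of all genes, and 455 were called. These 455 are 41.7% of the odd-day rises and 71.2% of the even-day rises. Of the 645 that fell, 618 (95.8%) had a negative change, against 48.4% of all, and 174 were called, 27.0% of the odd-day falls and 50.3% of the even-day falls. The day 12 mean lay between those of days 11 and 13 for 951 of the rises (87.2%) and 518 of the falls (80.3%), shares that are raised by choosing genes with a gap between those days. The genes called higher on day 13 had a median of 0.46 from day 11 to 13 and 0.3 from day 12 to 14, where the first is raised by the selection. From day 12 to 14, LIN28A was at -0.88 and SPAG6 at 1.32, both called. SHH was at 0.59 over the same days and did not pass (adjusted p = 0.12). Motile cilium genes counted 11 rises on even days, gliogenic factors 6 and floor plate genes 2.

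**Figure D5:**
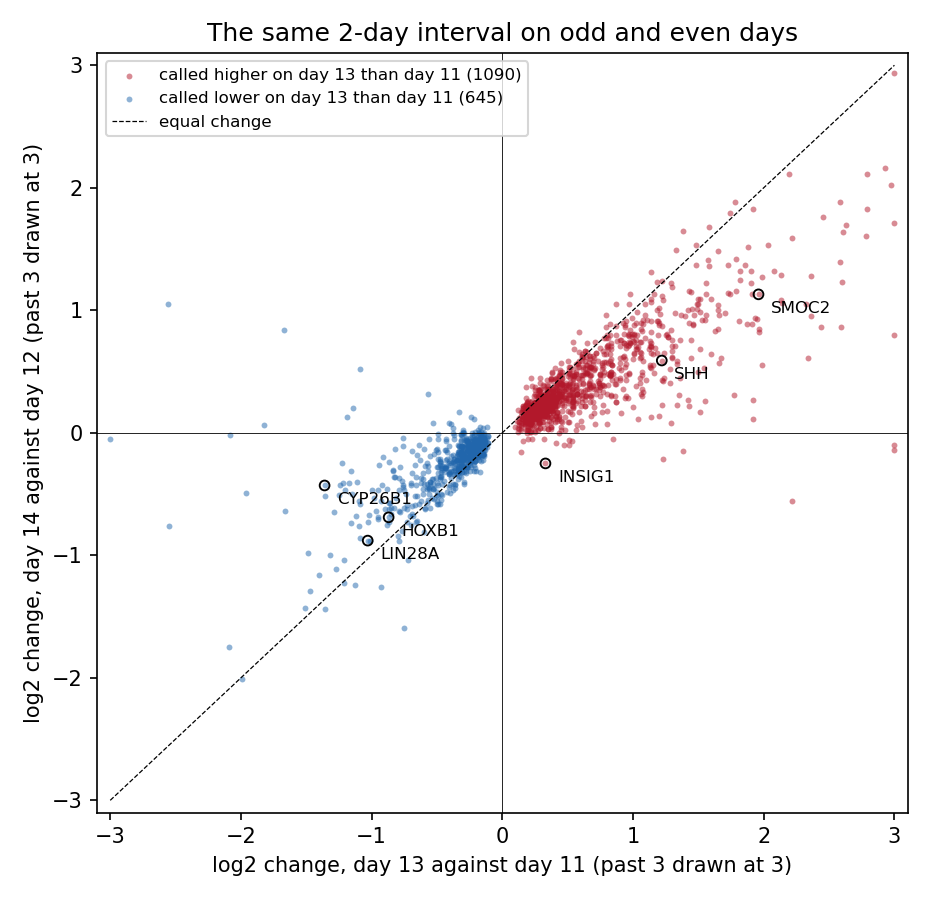
Log2 change from day 12 to day 14 (vertical) against log2 change from day 11 to day 13 (horizontal) for the 1090 genes called higher (red) and the 645 called lower (blue) on day 13; the dashed line marks equal change and circles mark named genes. The horizontal values chose the genes. Most points share the sign, and INSIG1 lies below 0 on even days.

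A test of the difference between the odd-day and even-day changes called 1 gene of 19436 (0.00515%) by edgeR, with 739 genes at an unadjusted p under 0.05, and DESeq2 called 5. The gene was INSIG1, the endoplasmic reticulum protein that holds back sterol synthesis when sterol is plentiful. It measured 82.9, 78.3 and 66.7 CPM on day 11 and 95.7, 99.5 and 90.7 on day 13, without overlap (0.33 ± 0.052, adjusted p = 3.7e-05). From day 12 to day 14 it changed by -0.25 (adjusted p = 0.0017), which makes a difference of 0.58. Its mean on day 12, 114 CPM, was above both odd days. The means of days 10, 11, 13, 14 and 15 were 94.1, 76.0, 95.3, 95.8 and 91.0 CPM. Each even day from 10 to 14 was thus above the odd days beside it, though days 13 and 14 were nearly equal. Of 19 tested genes of the cholesterol list, 3 rose from day 11 to day 13 and 4 fell from day 12 to day 14, and 8 were higher on day 12 than the midpoint of days 11 and 13. IDI1 and MSMO1, enzymes of the pathway, did not pass between days 11 and 13 (0.08 ± 0.064 and 0.17 ± 0.12) but lay 0.33 and 0.49 above the midpoint on day 12. HMGCS1, the first committed enzyme, was at 0.14 ± 0.068 (adjusted p = 0.24).

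In the FGF and BMP lists 1 gene each fell, and in the Wnt, glycolysis and collagen lists calls went both ways. With 5.61% of all genes rising and 3.32% falling, these few calls are given as single genes, not as results of a list. DUSP6, a phosphatase that reports FGF and ERK signalling, fell from 52.1, 53.6 and 57.2 CPM to 33.1, 35.1 and 39.1, with the days far apart (-0.6 ± 0.062, adjusted p = 9.8e-09), and it was the only called gene of 12 on its list. ID1, a target of BMP signalling, fell from 49.7, 42.7 and 43.1 CPM to 29.7, 33.2 and 33.1 (-0.5 ± 0.091). NKD1, a feedback inhibitor induced by Wnt, rose from 75.1, 69.3 and 55 CPM to 94, 120 and 108 without overlap (0.69 ± 0.11), while SFRP2, a secreted Wnt inhibitor, fell by 0.36 (SE 0.079). With ZNRF3, a ubiquitin ligase that removes Wnt receptors, at 0.23 ± 0.063 and SFRP1 at -0.3 ± 0.092, 2 of 14 Wnt feedback genes rose and 2 fell. SLC2A1, the main glucose transporter, fell from 144, 159 and 189 CPM to 110, 108 and 115 (-0.56 ± 0.078). Of 15 glycolysis and hypoxia genes, NDRG1 also fell (-0.49 ± 0.1), and EGLN3 and SLC2A3, another glucose transporter, rose, the latter by 0.2 ± 0.064 (adjusted p = 0.039), a call that ended in 6 alternatives. DPPA4, a chromatin protein of pluripotent cells, fell from 55, 52.1 and 51.8 to 38.4, 40.3 and 42.1 (-0.4 ± 0.061). Of 24 collagen and laminin genes 2 fell and 2 rose. NID1, a basement membrane linker, fell by 0.41 (SE 0.052) and COL1A2 by 0.97 (SE 0.24), while LAMB2, a laminin chain, rose by 0.33 ± 0.086 and COL4A5 by 0.22 ± 0.07. Without day 11 replicate 3 the calls of LAMB2 and COL4A5 ended (adjusted p = 0.16 and 0.42). FBN2, a fibrillin, fell by 0.49 (SE 0.093). In 11 lists with 99 genes tested, among them neural crest, endothelial, endodermal, p53 target, unfolded protein response and ventral progenitor genes, edgeR called 0 genes, 19 had an unadjusted p under 0.05, and DESeq2 called 5. Among all 19436 genes tested, 4182 had an unadjusted p under 0.05, so 19 of 99 is near the share of all genes. DESeq2 called 1124 genes higher and 856 lower.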

How the data were processed

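Polyadenylated RNA of H9-derived cells was sequenced in 45 libraries, 3 a day, per the labels. Per the submitters' processing notes, bcl2fastq 2.20.0 and RSEM were used, on GRCh38. Which annotation, aligner and strand setting they used is not given in the sources used here. The deposited expected counts are the authors' RSEM estimates per gene, with ambiguous reads shared out, and they were rounded to whole numbers here. The deposited TPM values, scaled by the authors for length and library total, served for marker sums and as an alternative.

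The tables hold 58233 genes, 57895 with an identifier in GENCODE 29. The quasi-likelihood F test of edgeR 4.0.16 (R 4.3.3) was used with TMM scaling, filterByExpr grouped by day and the robust option. One model with day as a factor covered the 45 libraries and left 30 residual degrees of freedom. The contrasts were day 13 minus day 11, day 14 minus day 12, and their difference. Day 12 against the midpoint of days 11 and 13 was added after the data were seen. P-values were adjusted by Benjamini-Hochberg over the 19436 genes tested, and called means an adjusted p under 0.05. Standard errors are the log2 change divided by the square root of F. For 3 libraries a side, the smallest p of an exact permutation test is 0.1.

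The comparison, the 50 gene lists and a panel of 52 genes were chosen with earlier results of these data known. Genes were named by a rule: the 12 highest and 12 lowest changes among called coding genes with a mean of 10 CPM or more on the higher day and no overlap of libraries, 3 each way among other genes, up to 4 called members of each list, the panel, and up to 6 each way for the difference. Values of a few genes are left out here. Other list members, and the genes with let-7 motifs, were named after their values were seen. The steps were tested on simulated data. Alternatives tried were DESeq2 1.42.0, its size factors in edgeR, no filter on low counts, a fit of the days compared alone, a term for the replicate number, limma 3.58.1 on log2(TPM + 1), keeping genes that reach 1 TPM in 3 libraries, a test against a 1.2-fold change, and each library left out. Where the text counts 12 alternatives for a gene, the 1.2-fold test is not among them.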

Additional observations from a re-analysis of the deposited data

Results flagged for a closer look

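The change of INSIG1 from day 11 to day 13 differed from its change from day 12 to day 14 by 0.58 on the log2 scale (edgeR, adjusted p = 3.1e-05), the only gene called for that difference. It rose by 0.33 between the odd days and fell by 0.25 between the even days. All 3 libraries of day 13 lay above all 3 of day 11. With 1 of the 12 libraries of the 4 days left out, the difference lay between 0.5 and 0.65 and stayed called. In a fit of the 4 days alone it was 0.6 and was not called (adjusted p = 0.81). Against a 1.2-fold change it was not called either (adjusted p = 0.17).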

How the results depend on the processing

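The number of genes that rose was 951 to 1124 with DESeq2, its size factors, no filter or the replicate block. With limma on TPM it was 754. The number that fell was 452 to 856 in these settings apart from no filter, which gave 384 falls among 37223 genes tested. A fit of the days compared alone, with fewer residual degrees of freedom, called 404 rises, 159 falls and 0 differences between odd and even days. A test against a 1.2-fold change called 293, 60 and 0, and DESeq2 called 5 differences. Leaving out 1 library gave 673 to 1061 rises, 314 to 542 falls and 1 to 2 differences. No gene called in an alternative had the opposite sign to its call in the full fit. Among the named genes, 70 calls ended in the fit of the days alone, 48 without day 11 replicate 3 and 28 on TPM values. No alternative was run for day 12 against the midpoint.

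Same-numbered libraries of days 11 and 13 did not deviate together (correlations of -0.0806, 0.089 and 0.082), so the numbers were not taken as pairs. With the replicate block, 1111 genes rose, 658 fell and 1 differed between odd and even days. The 1090 rises shared 1070 genes with it.

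The median SE of the log2 change was 0.11 over all genes and 0.069 for the 10497 genes of at least 10 CPM, so small changes of rare transcripts could not be detected here. Replicates of a day differed by more than counting noise.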
